A study of Mus musculus with 12 samples.

Results

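Pakap and Akap2 are annotated as separate genes of the mouse genome, yet most of their exons occupy the same bases of chromosome 4. Both were selected from a single table of estimated counts because Pakap was lower in stressed knockout libraries while the sum of Pakap and Akap2 stayed level, so their values in knockout libraries are given as a description, without a test. They are 2 of the 24411 gene symbols in the table, and both passed the filter on low counts that left 15199 symbols for testing.

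The table holds RNA sequencing of female mouse brain, from the medial prefrontal cortex at 8 to 12 weeks of age, in 4 groups of 3 libraries. Wild type (WT) C57BL/6J mice and mice lacking Cav3.1 (KO), a T-type calcium channel encoded by Cacna1g, on a C57BL/6J background, were each studied without stress and after chronic stress. Chronic stress was a forced swim or a tail suspension test of 5 minutes, given once a day for 5 days. WT mice were purchased from Clea Japan and KO mice came from the RIKEN BioResource Research Center, so genotype and colony cannot be told apart. Whether each library stands for a different animal is not in the labels, and p-values therefore measure the spread between these libraries.

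Library totals ran from 15469590 to 31082240 estimated counts. Levels are given as CPM, estimated counts scaled to library size. Cacna1g lay between 109 and 144 CPM in the 6 WT libraries and between 54.6 and 66.0 CPM in the 6 KO libraries. All 10 markers of cortical excitatory neurons were detected, with summed levels of 4037 to 6515 CPM over the 12 libraries. Unstressed WT libraries 1 and 2 stood apart with 732 and 833 CPM of the 7 olfactory bulb markers, against 23.0 to 101 CPM in the other 10 libraries. Stressed KO library 1 stood apart with 702 CPM of the 7 striatal projection neuron markers, against 147 to 236 CPM in the other 11 libraries.

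A-kinase anchoring proteins tether cAMP-dependent protein kinase (PKA) to defined places in the cell by binding its regulatory subunits, which confines cAMP signalling to the membranes, organelles or receptors where the anchor sits. AKAP2 is one such anchor, associated with the actin cytoskeleton and the plasma membrane. PALM2 belongs to the paralemmins, lipid-anchored proteins of the inner face of the plasma membrane that are abundant in brain. Pakap is the name for transcripts that start in the Palm2 exons and run on through the Akap2 exons, so that their product can join a paralemmin part to an anchoring part.

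In the GENCODE M21 annotation of GRCm38 (mm10), all 3 genes lie on the plus strand of chromosome 4. Palm2 (ENSMUSG00000090053.9) spans chr4:57434247-57712016, Pakap (ENSMUSG00000089945.13) spans chr4:57568179-57896982 and Akap2 (ENSMUSG00000038729.23) spans chr4:57717657-57896984. Of the 8456 exonic bases of Pakap, 6891 are also exonic in Akap2 and 1413 in Palm2, which leaves 152 bases, or 1.8%, that belong to Pakap alone. Akap2 has 1272 bases of its own among 8163 (15.6%), and Palm2 has 2203 among 3616 (60.9%). Akap2 and Palm2 share no exonic base. Of the exon junctions, 3 of 13 are found in Pakap alone, 8 of 12 in Akap2 alone and 2 of 8 in Palm2 alone. Of the 3 Pakap transcripts, 1 has 9 exons and 5163 bases and is annotated as protein coding, and the other two are annotated as targets of nonsense-mediated decay. RefSeq, in its GRCm38.p6 annotation, has a single gene at the locus, Pakap, with 8 transcripts and with Akap2 and Palm2 as synonyms.

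**Figure D1:**
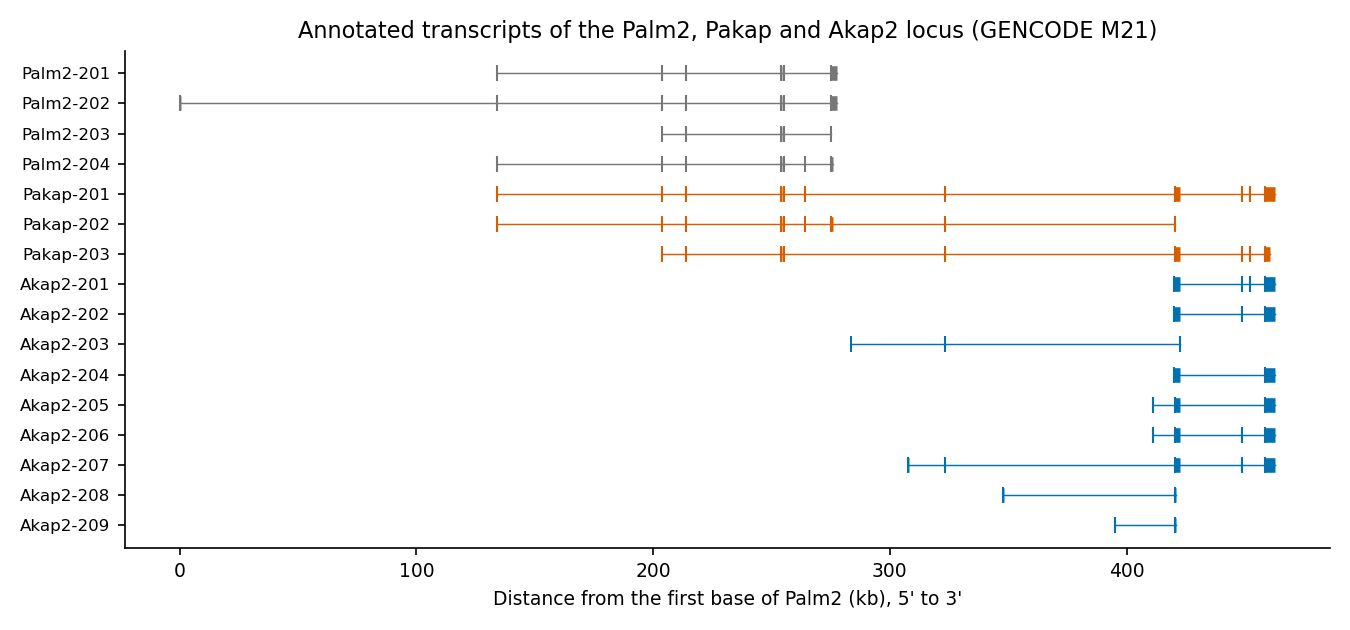
Annotated transcripts of Palm2 (grey), Pakap (orange) and Akap2 (blue) in GENCODE M21, with distance from the first base of Palm2 in kb on the horizontal axis and 1 transcript per line. Thick blocks are exons and thin lines introns. The 3 Pakap transcripts start among the Palm2 exons and run into the Akap2 exons, while no Palm2 exon overlaps an Akap2 exon.

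In the GENCODE M21 annotation, few sequences can assign a read to Pakap alone. How far the values that follow depend on them was not tested. Of the 3 junctions found in Pakap alone, only that of the protein-coding transcript is shown here. A Palm2 junction and a junction shared with Akap2 are shown for comparison. The first 2 junctions begin from the same Palm2 and Pakap exon and differ in the exon that follows, written in capitals. The first joins position 57689544 to position 57709451 and occurs in 3 of the 4 Palm2 transcripts. The second joins position 57689544 to position 57757601 and occurs in the protein-coding Pakap transcript alone. The third joins position 57757683 to position 57854562 and occurs in all 3 Pakap transcripts and in 1 of the 9 Akap2 transcripts, so a read across it does not separate Pakap from Akap2. Each shows 25 coding bases on either side, read from the GENCODE M21 transcripts.
Palm2 junction: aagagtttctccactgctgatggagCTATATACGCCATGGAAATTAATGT
Pakap junction: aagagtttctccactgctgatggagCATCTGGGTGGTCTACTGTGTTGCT
Pakap and Akap2 shared junction: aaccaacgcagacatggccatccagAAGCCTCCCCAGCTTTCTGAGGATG

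The 152 bases found in Pakap alone form a single stretch, chr4:57637823-57637974, at the 5′ end of the protein-coding Pakap transcript and annotated as coding. Capitals mark its last 48 bases, a repeat of T and C that is of low complexity.
Pakap stretch: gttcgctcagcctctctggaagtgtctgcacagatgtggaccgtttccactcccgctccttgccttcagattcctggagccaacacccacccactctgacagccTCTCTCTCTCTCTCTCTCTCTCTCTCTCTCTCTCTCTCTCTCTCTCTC

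The counts themselves carried a trace of this overlap. RSEM, the counting tool named in the submitters' processing notes, divides a read that matches several transcripts among them in proportion to their estimated abundance, which leaves decimals in the estimated count. Pakap, Akap2 and Palm2 each had decimals in 12 of 12 libraries. The sum of all 3 was a whole number within 0.02 in 12 of 12 libraries, whereas the sum of Pakap and Akap2 was whole in 3 libraries and the sums of Palm2 with Pakap or with Akap2 in 0. The total over the locus was thus a count of whole reads, and the 3 separate values were estimates of how that total divides. The level of each is therefore uncertain in a way that the spread between libraries does not fully measure. The gene annotation and the strand setting of the counting are not stated in the labels or notes, so whether the stretch and junctions above were those available to the authors was not tested.

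Pakap was lowest in the stressed KO group. The unstressed WT libraries held 25.1, 23.4 and 27.4 CPM of it and the stressed WT libraries 27.4, 24.9 and 22.2 CPM. The unstressed KO libraries held 29.5, 28.0 and 33.7 CPM, and the stressed KO libraries 13.9, 11.5 and 10.03 CPM. The 3 stressed KO libraries lay below all 9 others, and the remaining 9 formed a single range from 22.2 to 33.7 CPM. Group means were 25.3 ± 2.03, 24.8 ± 2.58, 30.4 ± 2.99 and 11.8 ± 1.94 CPM (SD, n = 3 each), in the same order. In this order of levels, both WT groups overlapped, and unstressed KO lay just above them. The estimated counts behind the stressed KO values were 399, 239 and 157, against 581 to 829 in the other 9 libraries, and the smallest of them came from the library with the smallest total. In RNA from whole tissue, fewer cells that express a transcript and less of it per cell cannot be told apart.

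Akap2, which shares most of its bases with Pakap, was highest in the same group. Its levels were 59.4, 65.7 and 60.6 CPM in the unstressed WT libraries and 57.8, 67.4 and 66.6 CPM in the stressed ones. Among KO libraries they were 66.9, 59.3 and 60.3 CPM when unstressed and 77.0, 79.9 and 73.9 CPM when stressed. All 3 stressed KO libraries lay above the other 9, which overlapped fully between groups. Group means were 61.9 ± 3.34, 63.9 ± 5.31, 62.2 ± 4.13 and 76.9 ± 3.00 CPM (SD, n = 3 each).

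Palm2, the partner at the 5′ end, was described as well because its counts are divided together with those of Pakap. Its levels in WT were 47.7, 51.4 and 64.5 CPM when unstressed and 57.6, 60.4 and 55.3 CPM when stressed. The unstressed KO libraries had 48.3, 46.9 and 53.3 CPM, and those of stressed KO 46.4, 46.1 and 38.1 CPM. The stressed KO libraries were again the lowest 3, but by a margin smaller than the spread within the groups, as 46.4 CPM was the highest of them and 46.9 CPM the lowest of the others.

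**Figure D2:**
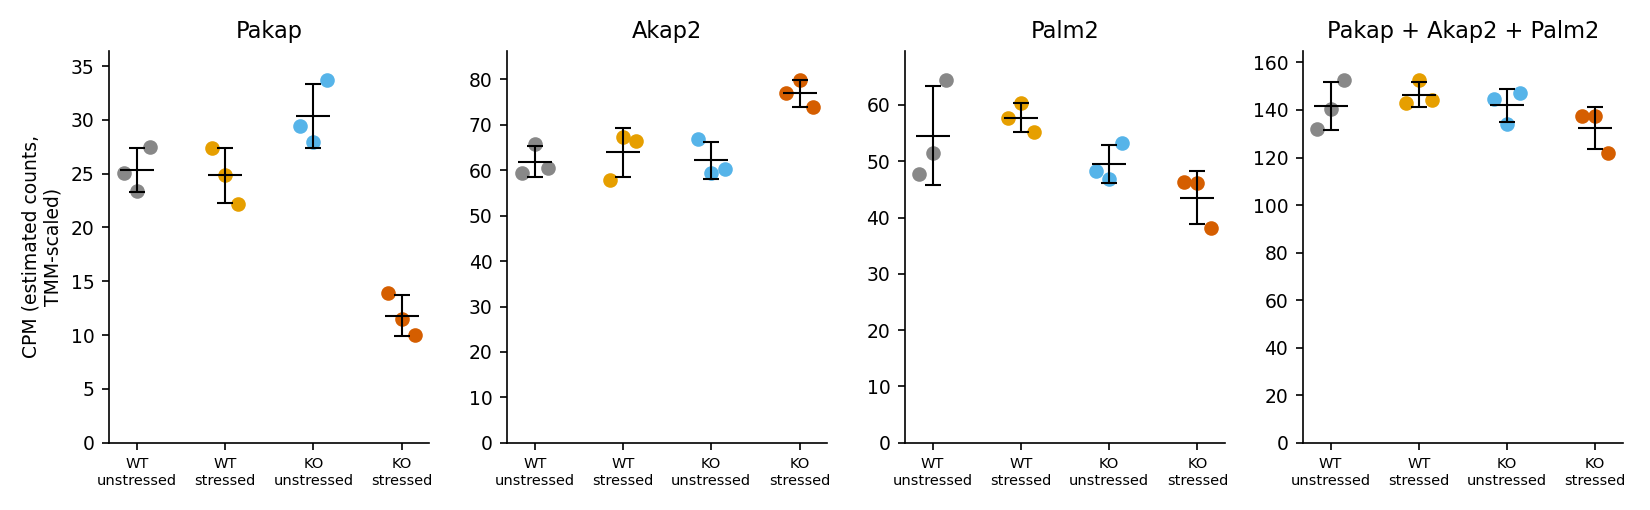
CPM of Pakap, Akap2, Palm2 and their sum in the 4 groups, on vertical axes that start at 0. Points are libraries, long bars are group means and error bars are the SD over 3 libraries. Stressed KO libraries are lowest for Pakap (10.03 to 13.9 CPM) and highest for Akap2 (73.9 to 79.9 CPM).

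Stress in WT is the comparison that the choice on a lower Pakap level did not use. There Pakap had a log2 fold change of −0.03 ± 0.12 (SE, n = 3 against 3), with an adjusted p of 0.882 in the quasi-likelihood test of edgeR, adjusted by Benjamini-Hochberg over all genes tested. Akap2 had 0.05 ± 0.08 with an edgeR adjusted p of 0.693, and Palm2 by 0.08 ± 0.11 with an edgeR adjusted p of 0.612. Thus 0 of the 2 members passed, 0 had an unadjusted p under 0.05 and 0 passed in DESeq2, while 21.9% of all tested genes passed in this comparison and 38.2% had an unadjusted p under 0.05. For both members the libraries of the WT groups overlapped, whereas 36.6% of tested genes had WT groups that did not. Without unstressed WT libraries 1 and 2, the log2 fold change of Pakap was −0.15 ± 0.17 and that of Akap2 0.08 ± 0.12. These values rest on library 3 alone in that group.

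Stress in KO, on which the members were chosen, gave Pakap a log2 fold change of −1.35 ± 0.13 (SE, n = 3 against 3), that is 0.392 times its unstressed level. Akap2 had 0.31 ± 0.08, or 1.24 times its unstressed level, and Palm2 −0.18 ± 0.11. For both members the stressed and unstressed KO libraries did not overlap, which held for 16.9% of all tested genes. In the test over all genes 0.0197% of genes passed in this comparison, 3 in number, and 1398 (9.20%) had an unadjusted p under 0.05. Leaving out each library in turn kept the Pakap value between −1.49 and −1.25. The most negative value came without stressed KO library 1, the library with high striatal markers. The part of striatal tissue in the Pakap value was not tested. The median log2 fold change of all tested genes was 0.00 in both stress comparisons.

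Between genotypes, unstressed KO exceeded unstressed WT in Pakap by a log2 fold change of 0.26 ± 0.12, and Akap2 stood at 0.01 ± 0.08. The lowest unstressed KO library, at 28.0 CPM of Pakap, lay just above the highest unstressed WT library, at 27.4 CPM, and 36.5% of tested genes had groups that did not overlap in this comparison. Under stress, KO against WT gave −1.06 ± 0.13 for Pakap and 0.27 ± 0.08 for Akap2. Here both members had groups that did not overlap, as did 22.1% of tested genes. The effect of stress in KO minus that in WT was −1.32 ± 0.18 for Pakap and 0.26 ± 0.11 for Akap2, on the log2 scale. These comparisons share the KO libraries on which the members were chosen and carry no test.

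**Figure D3:**
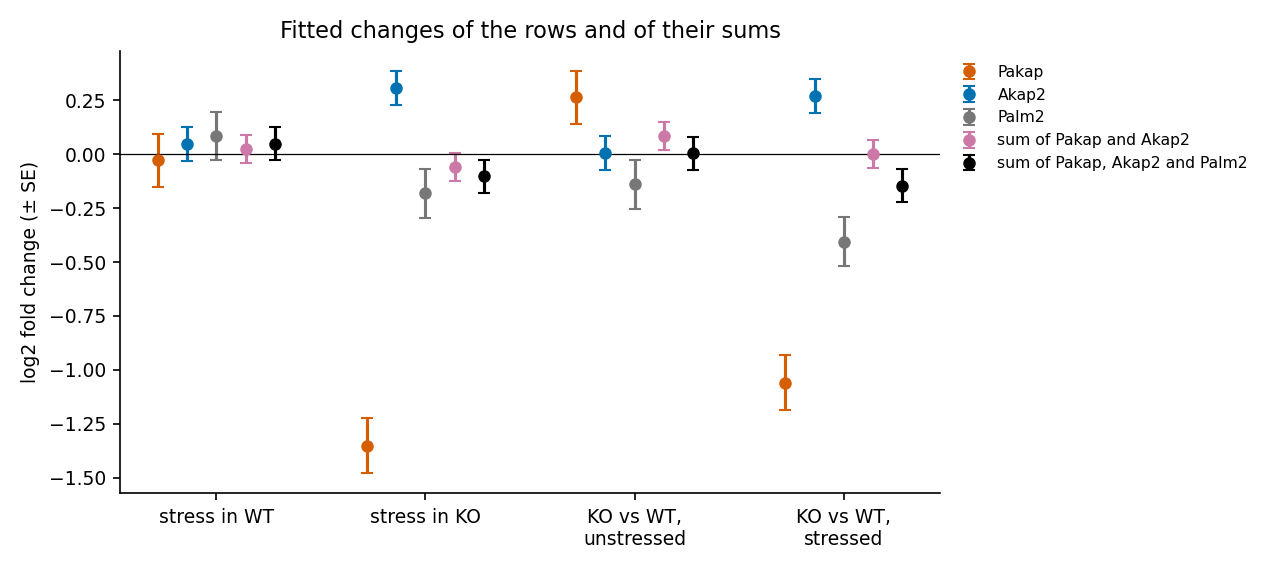
Fitted log2 fold changes, with SE from the edgeR fit, for Pakap, Akap2, Palm2, the sum of Pakap and Akap2, and the sum of all 3, in 4 comparisons of 3 against 3 libraries. In WT all 5 points lie near 0, and under stress in KO the Pakap point lies at −1.35 and the Akap2 point at 0.31.

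Added together, the members had like levels in all groups. In WT, the sum of Pakap and Akap2 was 84.5, 89.1 and 88.0 CPM when unstressed and 85.2, 92.3 and 88.8 CPM when stressed. The KO libraries had 96.4, 87.3 and 94.0 CPM when unstressed and 90.9, 91.4 and 83.9 CPM when stressed. All 4 groups overlapped, a level sum being part of what the members were chosen for. As a description without a test, the log2 fold change of this sum was 0.03 ± 0.07 for stress in WT. It was −0.06 ± 0.07 for stress in KO and 0.00 ± 0.07 for genotype under stress.

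The stressed minus the unstressed KO mean was −18.6 CPM for Pakap, 14.7 CPM for Akap2 and −5.96 CPM for Palm2. With Palm2 included, the sum of all 3 in WT was 132.2, 140.5 and 152.5 CPM when unstressed and 142.8, 152.7 and 144.0 CPM when stressed. The KO libraries had 144.7, 134.2 and 147.3 CPM when unstressed and 137.3, 137.5 and 122.1 CPM when stressed. The KO groups overlapped, whereas stressed KO lay wholly below stressed WT. In that comparison of genotypes, 22.1% of tested genes had groups that did not overlap. The log2 fold change of this whole-read total was 0.05 ± 0.08 for stress in WT (edgeR adjusted p = 0.672), −0.10 ± 0.08 for stress in KO and −0.15 ± 0.08 for genotype under stress.

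Shares of the locus do not depend on the scaling of libraries. They are shares of reads and not of molecules, since longer transcripts give more reads, and are compared here between libraries only. Of the reads given to Pakap and Akap2 together, Pakap took 29.7%, 26.3% and 31.2% in WT without stress and 32.1%, 27.0% and 25.0% in WT with stress. In KO it took 30.6%, 32.0% and 35.9% without stress and 15.3%, 12.6% and 11.9% with stress. Stressed KO stood apart from all other libraries on this measure too. As a log2 ratio of Pakap to Akap2, the group means went from −1.29 ± 0.18 to −1.37 ± 0.26 between the WT groups and from −1.04 ± 0.18 to −2.71 ± 0.22 between the KO groups, unstressed first (SD, n = 3 each).

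In WT this log2 ratio differed by −0.07 ± 0.18 (SE) between stressed and unstressed libraries, with p = 0.8 in an exact two-sided permutation test, which cannot give less than 0.1 for 3 against 3 libraries. In KO it differed by −1.68 ± 0.16, with no overlap. Against Palm2, the log2 ratio of Pakap differed by −0.12 in WT (exact two-sided permutation p = 0.4, smallest possible 0.1) and by −1.18 ± 0.08 in KO. Of the reads of all 3 genes, Pakap took 17.9% ± 1.17, 17.0% ± 1.96, 21.4% ± 1.34 and 8.91% ± 1.05 in the groups ordered as before, WT first and unstressed first (SD, n = 3 each). Akap2 took 43.8%, 43.6%, 43.8% and 58.2%, and Palm2 took 38.3%, 39.4%, 34.8% and 32.9%, in the same order.

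**Figure D4:**
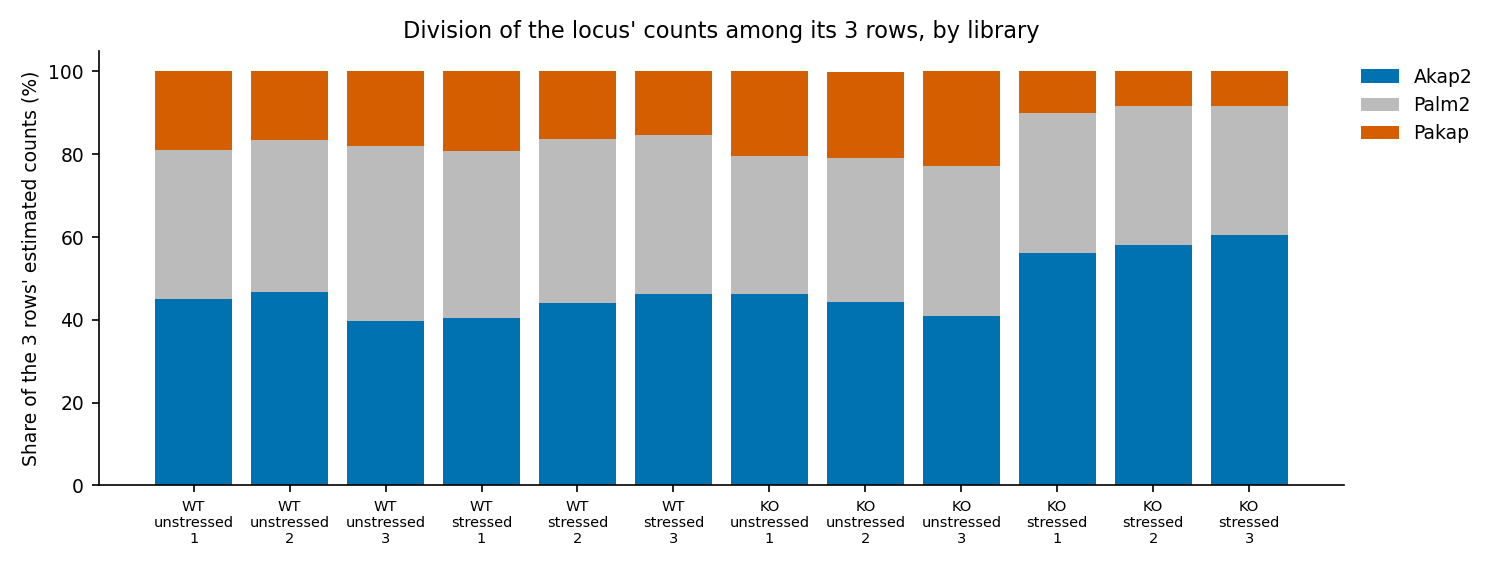
Percentage of the summed estimated counts of Pakap, Akap2 and Palm2 given to each of the 3, in each of the 12 libraries (1 stacked bar per library, 3 libraries per group). The Pakap share is 8.22% to 10.1% in the stressed KO libraries and 15.4% to 22.9% in the other 9.

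Over the 12 libraries the log2 CPM of Pakap and Akap2 had a Pearson r of −0.86, that of Pakap and Palm2 0.66, and that of Akap2 and Palm2 −0.51. These values describe libraries that share groups, and reads divided among 3 genes are tied to each other by that division.

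Other genes with overlapping exons show how far such divisions moved in these libraries. In 352 pairs of tested genes on the same strand, both with decimals in at least 6 libraries, the log2 ratio was computed with a pseudocount of 0.5 counts, and 298 of the pairs were among the clustered protocadherins. Stressed and unstressed KO did not overlap in 24 pairs, or 6.82%. Pakap to Akap2 was one of these, and the largest shift among the others was 1.18, in the pair of Palm2 and Pakap. Both pairs hold Pakap, which was chosen on these KO libraries, so their place among the pairs is a description and not a test. Among all pairs, overlapping or not, 4 had a larger shift than that of Pakap to Akap2. They were Xndc1 to Xntrpc with −2.54, Cers1 to Gdf1 with 2.41, Ugt1a6b to Ugt1a6a with −2.21 and Gm20605 to Sap25 with −2.06, and in each the KO groups overlapped. In WT, 46 of the 352 pairs (13.1%) did not overlap between stressed and unstressed libraries, and 285 pairs had a larger shift than Pakap to Akap2. Outside the protocadherins, 7 of 54 pairs (13.0%) did not overlap in KO.

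**Figure D5:**
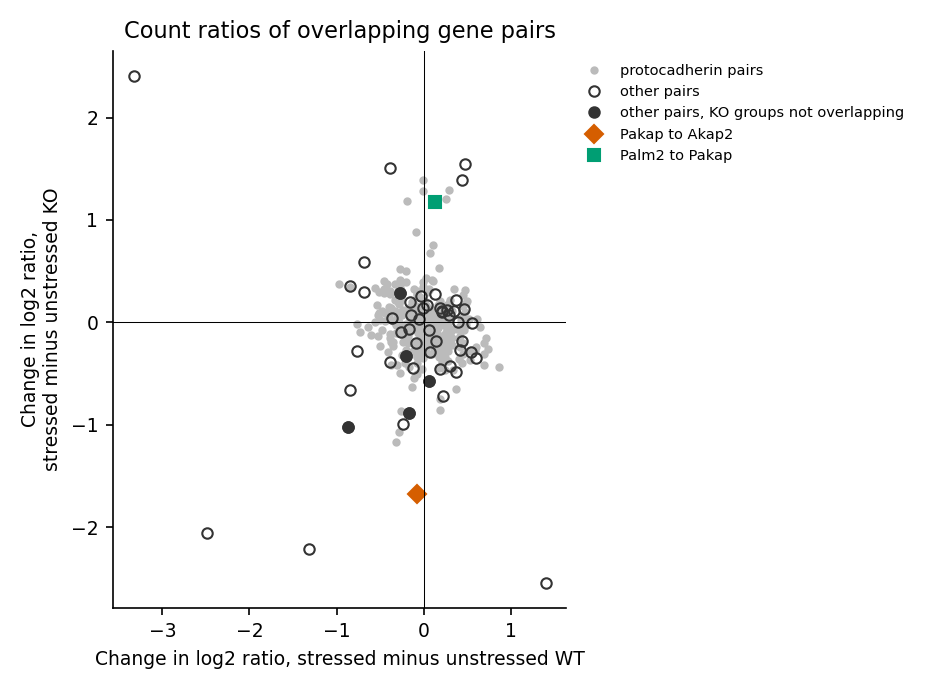
Change of the log2 count ratio with stress in WT (horizontal) and in KO (vertical) for 352 pairs of genes with overlapping exons, as differences of means of 3 libraries. Grey points are protocadherin pairs, circles other pairs, filled where the KO groups do not overlap. The diamond for Pakap to Akap2 lies near 0 in WT and at −1.68 in KO, and 4 pairs with overlapping KO groups lie farther from 0 on the vertical axis.

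The level of long transcripts was read beside these values. Genes were classed by their longest annotated transcript, and the longest class held 1460 genes, at 6855 bases or more. Both Pakap, at 7576 bases, and Akap2, at 7231 bases, fall in this class. The Pakap transcript of that length is annotated as a target of nonsense-mediated decay. The protein-coding Pakap transcript, at 5163 bases, is shorter than the limit of the class. Its mean log2 CPM relative to each gene's average was −0.01, −0.08 and −0.23 in the stressed KO libraries, against 0.01, −0.01 and 0.07 in the unstressed ones. In WT it was −0.06, −0.05 and −0.05 with stress and 0.05, 0.21 and 0.15 without. On this measure the highest stressed KO library equalled the lowest unstressed KO library to the precision given. Stressed KO overlapped stressed WT, and the WT groups did not overlap. Stressed KO library 3, the lowest here, also had the lowest Pakap level, 10.03 CPM, and the smallest total. Without it the log2 fold change of Pakap stayed within the range given above. The part of transcript length or RNA quality in the division of the locus was not tested.

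Genes were then ranked by how closely their log2 CPM followed the members over the 12 libraries, as a description of libraries that share groups. Nearest to Pakap were Mib1, a ubiquitin ligase that acts on Notch ligands (Pearson r = 0.94), Ptpn4, a protein tyrosine phosphatase (0.92), Mettl4, a methyltransferase (0.92), Arhgap5 (0.91) and Trip11, a golgin (0.90). Mib1 had group means of 54.1 and 56.1 CPM in WT without and with stress, and of 60.1 and 36.3 CPM in KO without and with stress, and was thus lowest and highest in the same groups as Pakap. Nearest to Akap2 were Sfxn4 (0.90), Rsc1a1 (0.87), Tomm6os (0.86), Ufsp1 (0.86) and Nmrk1 (0.84), all with group means of at most 10.8 CPM, and the count of Rsc1a1 carried decimals as well. Nearest to the log2 ratio of Pakap to Akap2 were Mib1 (0.93), Spag9 (0.90), Mettl4 (0.90), Arhgap5 (0.89) and Dnajc3 (0.89).

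The genes around the locus were read for comparison. Of the 8 tested genes nearest to it, 4 on each side, 0 passed for stress in KO by edgeR and 0 by DESeq2. Of all tested genes, 0.0197% passed by edgeR in that comparison. An unadjusted p under 0.05 was found for 1 of the 8, against 9.20% of all tested genes. The gene was Tmem245, with a log2 fold change of −0.65 ± 0.26 and an edgeR adjusted p of 0.51. Ptpn3, 132 kb before the locus, stood at −0.08 ± 0.16, and Txn1, the thioredoxin gene 46.4 kb after it, at −0.13 ± 0.11.

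Among the partners of the anchoring proteins, the edgeR test gave calls for stress in WT alone of the 2 stress comparisons. Of 9 PKA subunits and inhibitors, 1 was higher and 0 lower in stressed WT, with a median log2 fold change of 0.19 against 0.00 for all genes. It was Prkar2b, a regulatory subunit that anchors bind, at 0.43 (edgeR adjusted p = 0.0427). Of 21 other anchoring proteins tested, 1 was higher and 4 lower (median −0.01), namely Gskip (0.59), Akap8 (−0.65), Akap8l (−0.50), Akap13 (−0.73) and Akap12 (−0.80, edgeR adjusted p = 0.0246). None of 4 paralemmins passed, by edgeR or by DESeq2, and 0 had an unadjusted p under 0.05.

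Of 9 adenylyl cyclases, which make cAMP, 2 were higher and 2 lower (median 0.22). Of 16 phosphodiesterases, which degrade it, 0 were higher and 3 lower (median −0.06), and of 8 regulators of cAMP-responsive transcription 1 was higher and 3 lower (median −0.26). The shares called, 17 of 67 over the 6 lists, are read against 21.9% of all genes, 9.71% higher and 12.1% lower. Markers of some other cells differed between the WT groups, while those of astrocytes, endothelium, microglia, mural cells and striatal neurons overlapped. Unstressed WT libraries 1 and 2 had high olfactory bulb markers. The 8 markers of meninges and fibroblasts summed to 60.0 to 162 CPM in unstressed and 22.7 to 49.1 CPM in stressed WT, and the 7 oligodendrocyte markers to 1250 to 1498 and 1837 to 3198 CPM. Their part in these list results was not tested. Without unstressed WT libraries 1 and 2, only library 3 is left in that group, and all 17 kept their direction. The medians were then 0.05 for PKA subunits and inhibitors, −0.13 for the other anchoring proteins, −0.03 for adenylyl cyclases, a change of sign, −0.14 for phosphodiesterases and −0.16 for regulators of transcription. Of the 17, 0 passed without unstressed WT library 2 alone, without stressed WT library 2 alone or with only the WT libraries in the fit, settings in which 0, 0 and 1 genes passed in the whole table. With any single library left out, the log2 fold change stayed between −0.75 and −0.56 for Akap8 and between 0.50 and 0.74 for Gskip, and that of Akap12 ranged from −1.05 to −0.51. Without unstressed WT library 1, 9 of the 17 passed, and without stressed WT library 3, 8 passed. In stress in KO 0 of the 67 passed by edgeR and 0 by DESeq2, and 11 had an unadjusted p under 0.05, 3 higher and 8 lower. Of all tested genes, 0.0197% passed by edgeR in that comparison and 9.20% had an unadjusted p under 0.05. The medians there were −0.07 for PKA subunits and inhibitors and −0.10 for the other anchoring proteins, beside −1.35 for Pakap and 0.31 for Akap2.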

How the data were processed

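The table the authors deposited holds estimated counts, 1 row a gene symbol and 1 column for each of 12 libraries. The submitters' processing notes name RSEM 1.3.1, STAR 2.7.9a, DESeq2 1.36.0, Trim Galore 0.6.6 and the build mm10, and per the labels' protocols the library kit keeps strand. Decimals occurred in 874 to 1032 genes per library. Here counts were rounded, filtered by filterByExpr of edgeR with a minimum count of 10 and a minimum total of 15, and scaled by TMM. One edgeR quasi-likelihood model of 4 group means was fitted over all 15199 genes (8 residual degrees of freedom, Benjamini-Hochberg adjustment, threshold 0.05). For sums, the rows were replaced by their total and the table was refitted. SEs are from the fit. Shares and ratios used unrounded counts. The prior count for log2 CPM was 2. Tools were edgeR 4.0.16, limma 3.58.1 and DESeq2 1.42.0 in R 4.3.3.

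The floor for a gene without counts, 3 counts, equals 0.0920 to 0.192 CPM and covers counting error only. Replicates differed by a chi-square per degree of freedom of 4.93 to 71.2, so none was counted as a duplicate. GENCODE M21 held 14623 tested symbols (96.2%). The members and gene lists were chosen with earlier results of these data known. Genes named were the members, Palm2, Cacna1g, the 4 nearest tested genes on each side, the 5 most alike by correlation and the list members past the threshold, of which some are summarised. Alternatives were DESeq2's size factors, DESeq2, no filter, only the groups compared, a replicate block, adding Palm2, and leaving out each library or the libraries that stood apart.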

Additional observations from a re-analysis of the deposited data

How the results depend on the processing

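Leaving out each library in turn, as the range of log2 fold changes, gave −0.102 to 0.049 for Pakap under stress in WT, −0.218 to 0.034 for the ratio of Pakap to Akap2, −0.001 to 0.057 for the sum of Pakap and Akap2 and −0.003 to 0.216 for Palm2, so the sign of these small values depended on single libraries. Under stress in KO the direction of Pakap, Akap2 and their ratio held in all alternatives run. Ranges over single libraries were −1.49 to −1.25, 0.27 to 0.36 and −1.80 to −1.58. The members were chosen on these KO libraries, so that stability is a description and lends no support. Adding Palm2 to the sum of Pakap and Akap2 gave 0.004 for genotype without stress, −0.15 for genotype with stress and −0.15 for the difference of the stress effects. Without unstressed WT libraries 1 and 2, Palm2 stood at −0.16 for stress in WT, −0.38 for genotype without stress and −0.02 for the difference of the stress effects, and the sum of all 3 at −0.059, −0.103 and −0.043. Leaving out stressed KO library 1 as well gave −0.161, −0.383 and −0.069 for Palm2, and −0.059 and −0.103 for the first 2 of these for the sum.

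Counts of genes called moved more than the members did. All libraries gave 3322 for stress in WT and 3 in KO, 3529 and 38 for genotype without and with stress, and 0 for the difference of the stress effects (4330 at an unadjusted p under 0.05). In the same order, leaving out single libraries gave 0 to 5635, 1 to 5, 234 to 5729, 19 to 116 and 0 to 3851. The calls for stress in WT numbered 967, 0 and 5635 when libraries 1, 2 and 3 of unstressed WT were left out, and 2010, 0 and 1660 for those of stressed WT. With only the groups compared in the fit, 1 gene was called for stress in WT and 18 for genotype without stress. The fits without unstressed WT libraries 1 and 2 leave library 3 alone in that group. Without unstressed WT libraries 1 and 2 the calls were 0 for stress in WT, 18 for genotype without stress and 82 for genotype with stress; without stressed KO library 1 as well they were 3 in WT, 9 in KO and 28 for genotype without stress. DESeq2 called 46 genes in KO and 299 between stressed genotypes, and 1885 for the difference, for which edgeR with DESeq2's size factors called 198 and no filter called 143. The causes were not tested.

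Replicate numbers did not pair the libraries: deviations of same-numbered libraries correlated between −0.25 and 0.36, over 0.1 in 4 of 18 pairs, and 5 of 12 libraries correlated best with their own number. With the replicate number as a block, Pakap stood at −1.36 for stress in KO and −0.03 for stress in WT, and the genes called were 3007 under stress in WT, 4 in KO, 3155 and 27 for genotype without and with stress, and 0 for the difference. Of the 17 list members called for stress in WT, 0 reversed in any alternative run. Dividing reads among the 3 genes can add to Pakap an error common to the libraries, which the spread between libraries does not hold. That error has no value here.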
